A study of Mus musculus with 59 samples.

Results

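Complexes III, IV and V of the respiratory chain carry out the last steps of oxidative phosphorylation, and most of their subunits are encoded in the nucleus. The nuclear genes were taken as the table's rows whose mouse symbol began with Uqcr, Atp5 or Cox4 to Cox8, or was Cyc1, without a pseudogene suffix, and whose normalised count was at least 10 in at least 4 libraries. This gave 41 protein-coding genes of the 18088 rows: 9 of complex III, 15 of complex IV and 17 of complex V. All 41 entered the test, which covered 17891 genes. Atp5s was included by its name alone.

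Complex III passes electrons from ubiquinol to cytochrome c, complex IV passes them on to oxygen, and both pump protons out of the mitochondrial matrix. Complex V, the ATP synthase, lets the protons back through a rotating ring of c subunits and uses the rotation to make ATP in its F1 head. Neurons depend heavily on this route for the ATP that restores ion gradients after electrical activity.

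The tissue was prefrontal cortex of C57BL/6J mice at postnatal day 25. The mice were labelled heterozygous (HT, 29 libraries) or wild type (WT, 30 libraries) for Naa15, whose product anchors the NatA complex to ribosomes so that it can acetylate the N-termini of nascent proteins. They had received lithium (20 libraries), fluoxetine, which blocks the reuptake of serotonin (20 libraries), or vehicle (19 libraries) through the mother's milk for 3 weeks, between postnatal days 3 and 24. Each combination of genotype, treatment and sex had 5 libraries, apart from HT vehicle males with 4. Naa15 itself did not differ between HT and WT mice under vehicle (log2 difference -0.03 ± 0.041, SE, limma adjusted p = 0.895), so its messenger level does not check the genotype labels. Drug doses, the kind of Naa15 allele and the litters are not given in the sources used here. The p-values therefore measure the spread between these libraries, and littermates may be among them.

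Libraries held 25.0 to 32.9 M reads. All 20 libraries from lithium and the 5 from HT females on fluoxetine stood apart from the other 34 on the first principal component of all genes (-31.6 to -14.9, against -2.74 to 27.6). The same 25 libraries had lower values of long transcripts: the slope of the log2 values on each doubling of transcript length was -0.159 to -0.0246 in them, against -0.00317 to 0.0873 in the other 34. Their slopes per 10 points of GC content ran from -0.260 to -0.0547, against -0.0669 to 0.192. The members had a median transcript length of 731 bases, against 2822.5 bases for all tested genes with an annotated transcript, and a median GC content of 50.6%, against 49.9%. What part these slopes have in the changes below cannot be told apart from the treatment by groups alone. The changes were therefore also computed after a smooth trend on GC content and length was subtracted from every library. These trend-corrected values stand below beside the members' counts and the main genes. No trend-corrected counts were made for the other gene lists. In whole tissue, fewer cells of a type and less RNA per cell cannot be told apart.

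Levels are compared between genes as normalised counts per kilobase of transcript, averaged over all 59 libraries. In complex III, Uqcrh, a small hinge subunit next to cytochrome c1, had the highest level, at 5549 ± 852 (SD, n = 59). Uqcrq, another small subunit, had the lowest, at 1717 ± 263. That rank is unsure because it rests on an annotated transcript of 1521 bases. The mean normalised count of Uqcrq, 2612, was above those of Uqcrb (1448), Uqcr10 (1738), Uqcr11 (2223) and Uqcrfs1 (2535). In complex IV the highest level was that of Cox8a, the ubiquitous form of a small membrane subunit, at 17146 ± 2470. The lowest was that of Cox7a1, the heart and skeletal muscle form of subunit VIIa, at 28.9 ± 11.2. In complex V, Atp5b, the catalytic beta subunit, led with 13283 ± 959, and Atp5s was lowest with 199 ± 25.4.

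In each isoform pair the ubiquitous form stood far above the tissue-restricted one. Cox4i1 stood at 13694 ± 1503 per kilobase, against 38.3 ± 11.7 for Cox4i2, the form known from lung and vascular mural cells. Cox6a1 stood at 12268 ± 1546, against 190 ± 35.4 for Cox6a2, known from heart and skeletal muscle. Cox6b1 stood at 6678 ± 749, against 32.4 ± 9.8 for Cox6b2, known from testis. Cox7a2 stood at 3814 ± 586 and Cox7a2l at 2870 ± 264, against 28.9 ± 11.2 for Cox7a1. Cox7a2l is known as a supercomplex factor of complexes III and IV, but neither its allele nor supercomplexes were examined in these mice. No row named Cox8b or Cox8c met the rule. Of the 3 genes that encode the same c-ring protein with different targeting peptides, Atp5g3 stood at 5421 ± 687 and Atp5g2 at 288 ± 88.2. Atp5g1 stood at 722 ± 96.3, a level that is unsure because its annotated transcript of 4715 bases is far longer than its coding part. Neighbours in the order of levels, such as Uqcrc1 (3401 ± 388) and Atp5mpl (3401 ± 699), often did not differ beyond their spread.

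Lithium against vehicle asked what the treatment did to these genes in both genotypes and sexes. Under lithium 33 of the 41 members rose and 4 fell in limma's test (Benjamini-Hochberg adjusted p under 0.05), and their median log2 change was 0.31. Over all 17891 genes 63.1% were called, 32.7% rose, 30.4% fell and the median change was 0.02. Complex III had 8 genes that rose and 1 that fell, complex IV 11 and 1, and complex V 14 and 2, with median log2 changes of 0.30, 0.33 and 0.31. The genes that fell were Uqcrc1, Cox4i1, Atp5a1 and Atp5d. Those not called were Cox4i2, Cox6a1, Cox6a2 and Atp5b. After trend correction, 20 members rose and 6 fell, with a median of 0.06 (45.5% of all genes called). In 12 of the 41 members the lithium and vehicle libraries did not overlap, which held for 6.6% of all genes tested.

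**Figure D1:**
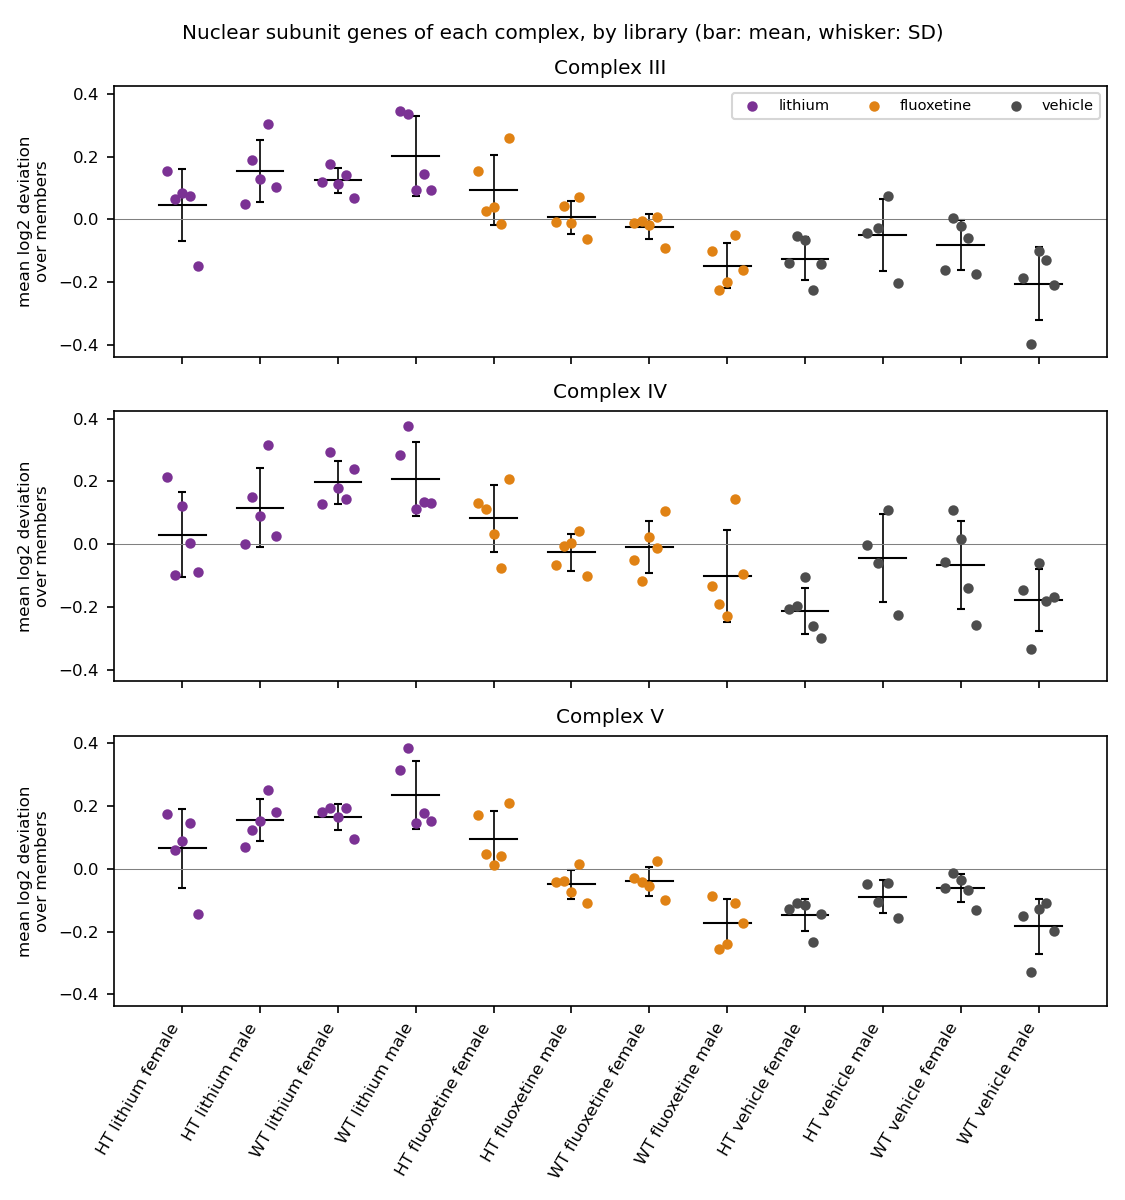
Mean log2 deviation of the member genes from their average over all 59 libraries, for complexes III, IV and V (y axis, log2 units), by group (x axis). Points are libraries, bars are group means and whiskers are SDs. Complex V deviations in lithium libraries ran from -0.14 to 0.39 and in vehicle libraries from -0.33 to -0.01; 1 HT lithium female library lay below every other lithium library in complexes III and V.

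Averaged over the members of a complex, lithium libraries stood higher than vehicle libraries, with some overlap. The complex III mean lay between -0.15 and 0.34 log2 units in lithium libraries (median 0.12), against -0.40 to 0.07 in vehicle libraries (median -0.13). The complex IV mean lay between -0.10 and 0.38 under lithium (median 0.13), against -0.33 to 0.11 under vehicle (median -0.15). For complex V the corresponding ranges were -0.14 to 0.39 (median 0.16) under lithium and -0.33 to -0.01 (median -0.12) under vehicle. The groups overlapped in all 3 complexes. In complex V this rested on HT lithium female replicate 5: without it the lowest lithium library was at 0.06, above every vehicle library. In complexes III and IV the lowest of the other 19 lithium libraries were at 0.05 and -0.10, within the vehicle range. After trend correction, the mean over all members was -0.14 to 0.21 under lithium (median 0.04), against -0.21 to 0.05 under vehicle (median -0.04). The lithium and vehicle medians were then -0.05 and -0.06 in HT females and 0.01 and -0.03 in HT males. In WT females they were 0.07 and -0.01, and in WT males 0.07 and -0.04. The members together made up 0.508 to 0.701% of normalised counts under lithium, against 0.475 to 0.601% under vehicle.

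In complex III the redox subunits and the small subunits rose while the core proteins split. Uqcrh ranged from 3282 through a median of 3552 to 4008 normalised counts in lithium libraries, against 2343, 2620 and 2915 in vehicle libraries. The groups did not overlap, and the log2 change was 0.44 ± 0.022 (SE, adjusted p = 1.05e-23), or 1.36-fold, with all 20 lithium libraries above the vehicle mean of their genotype and sex. Uqcrc2, 1 of the 2 large core proteins on the matrix side, had 4643, 5181 and 5696 under lithium and 4007, 4363 and 4686 under vehicle (0.26 ± 0.019, adjusted p = 1.26e-17). Its partner Uqcrc1 went the other way, with 4087, 5051 and 6232 under lithium and 5048, 6048 and 6583 under vehicle (-0.26 ± 0.035, adjusted p = 5.80e-09). These values overlapped, yet 19 of 20 lithium libraries lay below the matching vehicle mean. The messages of the core pair, whose proteins enter the complex in equal numbers, moved in opposite directions. After trend correction, Uqcrh changed by 0.14, Uqcrc2 by 0.04, no longer called (adjusted p = 0.155), and Uqcrc1 by -0.13.

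Among the other complex III genes, Uqcrb, a small subunit near the ubiquinone site, had 1469, 1623 and 1873 under lithium and 1158, 1300 and 1481 under vehicle (0.31 ± 0.022, adjusted p = 1.55e-17). Uqcrfs1, the Rieske iron-sulphur protein, rose by 0.29 ± 0.024, Uqcr11 by 0.43 ± 0.043, Uqcr10 by 0.35 ± 0.059 and Uqcrq by 0.30 ± 0.050. Cyc1, which carries the haem of cytochrome c1, rose by only 0.11 ± 0.048 (adjusted p = 0.0397). That call was lost when any 1 of 16 libraries was left out, with adjusted p between 0.0507 and 0.0840. After trend correction, Uqcrb was called as falling (-0.20), Uqcrfs1 changed by 0.12, Uqcr11 by 0.33, Uqcr10 by 0.16, Uqcrq by 0.20 and Cyc1 by 0.17.

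In complex IV the ubiquitous subunits rose in 8 of 10 cases. Cox6c, a small membrane subunit, had 5020, 5395 and 6151 in lithium libraries, against 3781, 4011 and 4475 in vehicle libraries. The groups did not overlap (0.42 ± 0.022, adjusted p = 6.85e-23). Cox7c, also a small membrane subunit, had 3217, 3459 and 4039 under lithium and 2380, 2601 and 2941 under vehicle (0.41 ± 0.022, adjusted p = 1.21e-22). Cox7a2l had 3227, 3361 and 3881 under lithium and 2650, 2854 and 3060 under vehicle (0.25 ± 0.017, adjusted p = 3.40e-19). Cox7a2 rose by 0.41 ± 0.027 and Cox8a by 0.40 ± 0.037. Cox4i1, the large subunit IV that binds ATP and tunes the enzyme, was the ubiquitous gene that fell. It had 8443, 9809 and 12929.7 under lithium and 8924, 10348 and 13203 under vehicle (-0.10 ± 0.039, adjusted p = 0.0221), and 16 of 20 lithium libraries lay below their vehicle mean. Without HT vehicle male replicate 3 this was -0.08 with adjusted p = 0.0581. After trend correction, Cox6c changed by 0.06, Cox7a2l by 0.08, Cox7a2 by 0.21, Cox8a by 0.34 and Cox4i1 by -0.11, and Cox7c was no longer called (0.02).

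The rare isoforms of complex IV gave little at their depth. Cox6b2 had 12.04, 21.97 and 32.7 under lithium and 9.05, 15.04 and 23.0 under vehicle (0.44 ± 0.12, adjusted p = 0.00127). Cox7a1 had 6.77, 13.0 and 19.2 under lithium and 4.02, 11.1 and 22.15 under vehicle (0.41 ± 0.18, adjusted p = 0.0416); edgeR and DESeq2 did not call it, and limma lost the call without any 1 of 18 libraries (adjusted p between 0.0512 and 0.0888). Changes of Cox4i2 (0.06 ± 0.14) and Cox6a2 (0.02 ± 0.083) were smaller than their standard errors, and so was that of the abundant Cox6a1 (0.03 ± 0.053). After trend correction, Cox6b2 changed by 0.32 and Cox7a1 was not called (0.18).

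Complex V showed the widest range. Atp5mpl, a very small protein of the membrane part, had 1386, 1540 and 1791 in lithium libraries, against 955, 1030 and 1124 in vehicle libraries. The groups did not overlap, and the change of 0.58 ± 0.022 (1.49-fold, adjusted p = 4.69e-28) had the smallest p of all members. Atp5l, subunit g of the membrane part, had 2705, 3158 and 3682 under lithium and 2129, 2354 and 2674 under vehicle (0.41 ± 0.026, adjusted p = 1.35e-19). Atp5c1, the gamma subunit whose shaft turns inside the F1 head, had 5092, 5677 and 6276 under lithium and 4377, 4789 and 5034 under vehicle (0.25 ± 0.016, adjusted p = 2.41e-19). All 4 membrane accessory genes and all 4 peripheral stalk genes were called as rising, with median changes of 0.45 and 0.21. The peripheral stalk gene Atp5o moved least of these (0.09 ± 0.036, adjusted p = 0.0332), and its call was lost without any 1 of 7 libraries (0.07 to 0.08, adjusted p between 0.0510 and 0.0749). These were HT lithium female replicates 1 and 4, HT lithium male replicate 4, HT vehicle male replicate 4, WT lithium male replicates 1 and 2 and WT vehicle male replicate 2. After trend correction, Atp5mpl (0.01), Atp5c1 (0.04) and Atp5o (-0.02) were not called, and Atp5l changed by 0.05.

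The c-ring genes all rose. Atp5g2 had 135, 273 and 384 under lithium and 100.4, 163 and 281 under vehicle (0.61 ± 0.11, adjusted p = 1.69e-06). Atp5g1 rose by 0.31 ± 0.040 and Atp5g3 by 0.31 ± 0.030. The catalytic head did not share this. Atp5b had 20002, 25788 and 30374 under lithium and 22612, 25749 and 27479 under vehicle, a change of 0.00 ± 0.033 (adjusted p = 0.965). Atp5a1, the alpha subunit, had 15363, 19633 and 23853 under lithium and 18499, 21428 and 23988 under vehicle (-0.11 ± 0.036, adjusted p = 0.00800). After trend correction, Atp5g2 changed by 0.56, Atp5g1 by 0.31, Atp5g3 by 0.08 and Atp5a1 by -0.12. The corrected value of Atp5g1 is unsure, because the trend used its annotated length of 4715 bases.

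The epsilon and delta subunits, which sit side by side at the foot of the F1 shaft, gave the sharpest contrast; this pair and the gene Atp5e were picked after their values were seen. Atp5e, the epsilon gene, had 1076, 1392 and 1736 in lithium libraries, against 698, 871 and 1125 in vehicle libraries (0.63 ± 0.048, 1.55-fold, adjusted p = 1.26e-16). Atp5d, the delta gene, had 3483, 4128 and 5204 under lithium and 4055, 4962 and 5946 under vehicle (-0.27 ± 0.041, adjusted p = 1.45e-07). Each gene's libraries overlapped, but their ratio did not: Atp5e stood at 0.301 to 0.374 of Atp5d under lithium, against 0.144 to 0.243 under vehicle. In the same way Uqcrh stood at 0.607 to 0.820 of Uqcrc1 under lithium, against 0.389 to 0.577 under vehicle. Cox6c stood at 0.439 to 0.607 of Cox4i1 under lithium, against 0.330 to 0.440 under vehicle, and these ranges overlapped slightly. Each ratio sets a member called as rising over one called as falling in these same libraries. A gap between lithium and vehicle ratios therefore follows in part from that choice and is not a further result. Trend-corrected ratios, and the share of all gene pairs with such a gap, were not computed. After trend correction, Atp5e changed by 0.41 and Atp5d by -0.18.

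**Figure D2:**
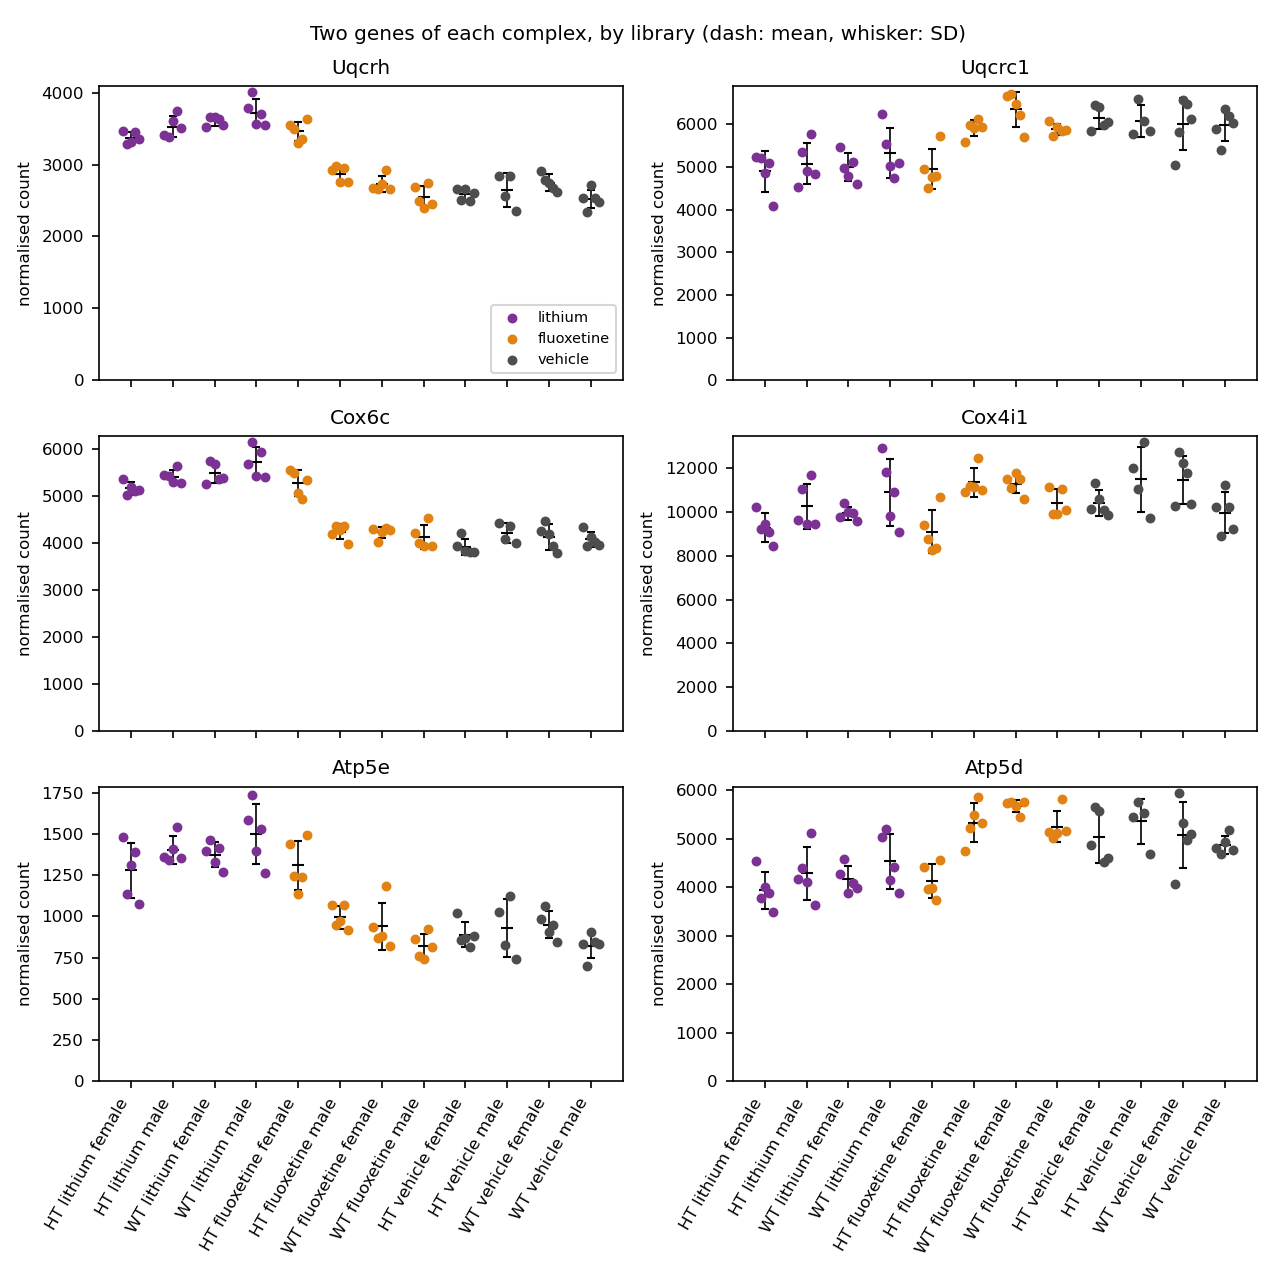
Normalised counts (y axis, from 0) of Uqcrh, Uqcrc1, Cox6c, Cox4i1, Atp5e and Atp5d in every library, by group (x axis). Points are libraries, dashes are group means and whiskers are SDs. Uqcrh, Cox6c and Atp5e were high in the lithium groups and in HT fluoxetine females, where Atp5e ran from 1139 to 1493; Atp5d was low there, from 3728 to 4560 in HT fluoxetine females.

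Promoter windows were read to show what stands upstream of genes that moved in opposite directions in complexes III and V. The 160 bases before the RefSeq start (GRCm38.p6) of Uqcrh, on the minus strand at chr4:116075071-116075230, and of Uqcrc1, on the plus strand at chr9:108936488-108936647, are followed by those of Atp5e, on the minus strand at chr2:174464102-174464261, and of Atp5d, on the plus strand at chr10:80142115-80142274. Each runs 5′ to 3′ on the gene's strand, and capitals mark matches to the motifs named below.
Uqcrh: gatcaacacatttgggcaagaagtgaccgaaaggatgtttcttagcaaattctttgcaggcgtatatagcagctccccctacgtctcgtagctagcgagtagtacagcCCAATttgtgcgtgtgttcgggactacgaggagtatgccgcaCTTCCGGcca
Uqcrc1: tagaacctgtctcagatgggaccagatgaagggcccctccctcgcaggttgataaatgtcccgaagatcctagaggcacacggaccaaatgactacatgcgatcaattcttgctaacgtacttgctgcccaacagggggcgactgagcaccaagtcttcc
Atp5e: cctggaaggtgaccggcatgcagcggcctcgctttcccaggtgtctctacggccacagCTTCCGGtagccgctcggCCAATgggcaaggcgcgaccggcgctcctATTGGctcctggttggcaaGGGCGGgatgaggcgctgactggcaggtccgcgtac
Atp5d: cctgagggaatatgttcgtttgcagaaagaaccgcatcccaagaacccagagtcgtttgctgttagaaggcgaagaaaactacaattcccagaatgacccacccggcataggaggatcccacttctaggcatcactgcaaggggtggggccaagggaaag

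Uqcrh held an ETS match (CCGGAAG, here as its complement) and a CCAAT match; Atp5e held an ETS match, a GGGCGG match for Sp factors and 2 CCAAT matches. The windows of Uqcrc1 and Atp5d held none within these 160 bases, and neither did those of Cox7c and Cox8a, which both rose under lithium. Searched on both strands, the motifs can overlap one another and were looked for in 250 bases before to 50 after the start, for which 29 of the 41 members had an entry. The core of the NRF1 motif (GCGC, 2 free bases and GCGC) was in 8 of the 29 (27.6%), against 7% of all 27025 genes with a window, and Uqcrc1 was among the 8, further upstream or downstream of the part shown. The ETS motif was in 10 (34.5%), against 9.93% of all genes, and CCAAT in 16 (55.2%), against 41.1%. The Sp motif was in 9 (31.0%), against 38.2%, and the YY1 core AAGATGG in 3 (10.3%), against 7.28%. Of the 25 members with a window that rose under lithium, 9 held the ETS motif and 6 the NRF1 motif, and of the other 4, 1 and 2 did. A match describes letters and shows no binding.

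The lithium change was read separately in each genotype. In HT mice 30 members rose and 4 fell (25.7% and 24.9% of all genes, 50.6% in all; median of the members 0.25), and in WT mice 31 rose and 2 fell (26.6% and 26.3% of all genes, 52.9% in all; median 0.35). After trend correction, 12 rose and 8 fell in HT mice (median 0.02, 27.9% of all genes called). In WT mice 22 then rose and 3 fell (median 0.12, 33.7% of all genes called). In HT mice the genes that fell were again Uqcrc1, Cox4i1, Atp5a1 and Atp5d; Atp5d changed by -0.34 in HT mice and by -0.19 in WT mice. In HT mice the call of Cox4i1 was lost without HT vehicle male replicate 3 (-0.13, adjusted p = 0.0577). That of Atp5a1 was lost without HT lithium female replicate 5, HT lithium male replicate 1 or HT vehicle male replicate 2 (-0.13 to -0.10, adjusted p between 0.0502 and 0.0809). Cyc1 changed by 0.01 in HT mice and by 0.21 in WT mice, and Atp5o by 0.01 in HT mice and by 0.16 in WT mice. The test of the difference itself called 0 members in limma, edgeR and DESeq2 (0% of all genes in limma and edgeR, 0.0112% in DESeq2). At an unadjusted p under 0.05 limma gave 9 of 41, against 5.91% of all genes, with a median difference of -0.10 and the smallest adjusted p at 0.832. Under lithium itself all 41 members were lower in HT than in WT mice, with a median log2 difference of -0.09, but 0 passed in limma or edgeR (0.386% of all genes called). Of all genes 51.8% were lower in HT mice. At an unadjusted p under 0.05 there were 20 members and 14% of all genes. DESeq2 called Atp5mpl. The members move together from library to library, with a median residual correlation of 0.51 over 820 pairs, so the 41 genes do not count as 41 separate observations.

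**Figure D3:**
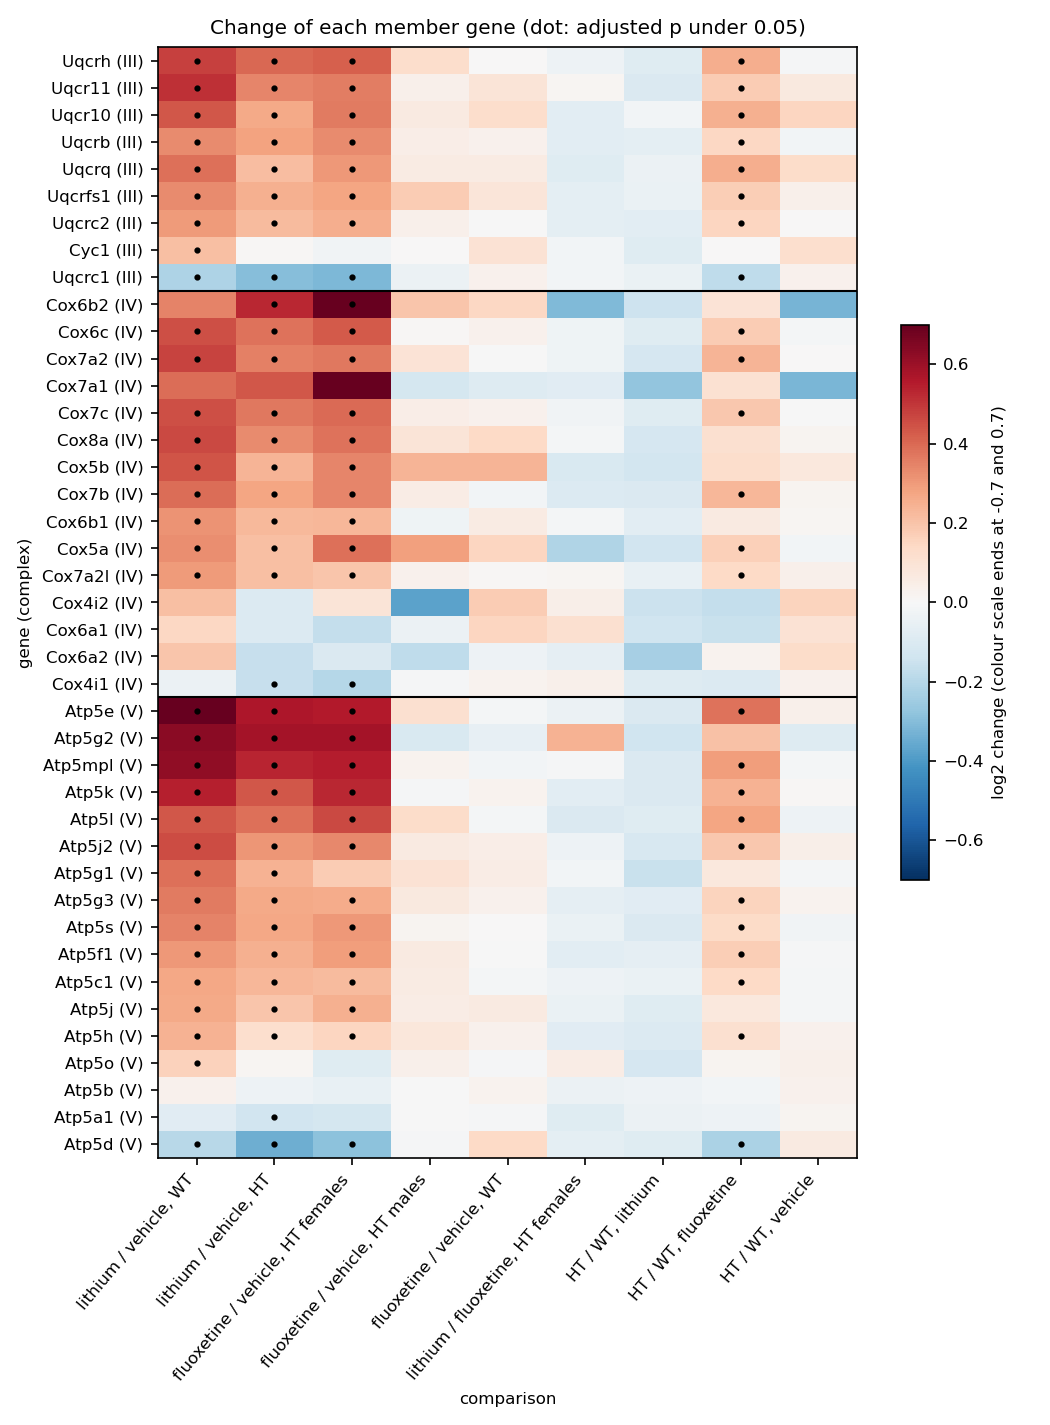
Log2 change of each of the 41 members (rows, grouped by complex and ordered by their lithium change) in 9 comparisons (columns). Red is higher and blue lower on the first-named side, dots mark limma adjusted p under 0.05, and the colour scale ends at -0.7 and 0.7, which Cox6b2 and Cox7a1 exceed in HT fluoxetine females and Atp5e just reaches under lithium in WT mice. The columns for fluoxetine in HT males and WT mice and for HT against WT under vehicle and lithium hold 0 dots.

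Under fluoxetine the members were followed in HT females, HT males and WT mice. In HT females 29 members rose and 3 fell against HT vehicle females, with a median log2 change of 0.30, where 38.3% of all genes were called, 18.9% as rising and 19.5% as falling. By complex, 7 rose and 1 fell in complex III, 10 and 1 in complex IV, and 12 and 1 in complex V. In 27 of 41 members the 2 groups of 5 libraries did not overlap, as in 26.7% of all genes tested. After trend correction, 9 rose and 5 fell, with a median of 0.06 (13.2% of all genes called), and 9 of the 29 were still called as rising. The mitochondrial chromosome held 6.91 to 9.03% of counts in HT fluoxetine females, against 5.23 to 6.74% in HT vehicle females. The summed excitatory neuron markers ran from 129031 to 142437 in HT fluoxetine females, against 150669 to 185188 in HT vehicle females, and the microglia markers from 5889 to 6247 in HT fluoxetine females, against 6700 to 8937 in HT vehicle females. These 3 quantities did not overlap between the groups, but the sums of all other marker lists did. General neuron markers, for example, ran from 132588 to 141395 in HT fluoxetine females, against 117215 to 140549 in HT vehicle females. Within the excitatory list Neurod6 rose. The part of any of these quantities in the members' changes was not tested. The comparison shares its vehicle libraries with lithium against vehicle in HT mice, so the changes are given side by side and not as a second observation.

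Uqcrh had 3542, 3490, 3303, 3348 and 3626 normalised counts in HT fluoxetine females, against 2664, 2509, 2653, 2498 and 2605 in HT vehicle females. Every fluoxetine library was above every vehicle library (0.42 ± 0.043, adjusted p = 2.70e-11). Cox6c had 5555, 5491, 5059, 4931 and 5333 in HT fluoxetine females, against 3945, 4213, 3827, 3807 and 3800 in HT vehicle females (0.43 ± 0.042, adjusted p = 1.51e-11). Atp5mpl had 1500, 1510, 1429, 1448 and 1511 in HT fluoxetine females, against 1066, 972, 1028, 955 and 1030 in HT vehicle females (0.55 ± 0.043, adjusted p = 1.43e-14). Here too no fluoxetine library fell within the vehicle range. After trend correction none of the 3 was called: Uqcrh was at 0.10, Cox6c at 0.05 and Atp5mpl at -0.07.

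Other small subunits followed: Uqcrb changed by 0.33 ± 0.044, Cox7c by 0.40 ± 0.042, Cox7a2 by 0.37 ± 0.054, Atp5l by 0.46 ± 0.051 and the peripheral stalk gene Atp5f1 by 0.29 ± 0.038. The core protein gene Uqcrc2 had 5309, 5147, 5112, 5167 and 5213 in HT fluoxetine females, against 4320, 4415, 4552, 4132 and 4363 in HT vehicle females (0.25 ± 0.037, adjusted p = 1.78e-07). Its partner Uqcrc1 had 4958, 4506, 4772, 4783 and 5732 in HT fluoxetine females, against 5841, 6445, 6391, 5979 and 6048 in HT vehicle females (-0.31 ± 0.068, adjusted p = 0.00018). Neither gene's groups overlapped, and the core pair again split. After trend correction, Uqcrc2 (0.04), Uqcrc1 (-0.16), Cox7c (-0.02) and Atp5l (0.08) were not called, Uqcrb was called as falling (-0.21), Cox7a2 changed by 0.16 and Atp5f1 by 0.19.

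Atp5e had 1437, 1247, 1139, 1242 and 1493 in HT fluoxetine females, against 1022, 860, 871, 818 and 879 in HT vehicle females (0.56 ± 0.095, adjusted p = 4.39e-06). Atp5d had 4420, 3957, 3981, 3728 and 4560 in HT fluoxetine females, against 4872, 5646, 5569, 4509 and 4603 in HT vehicle females (-0.29 ± 0.082, adjusted p = 0.00403). Atp5e stood at 0.286 to 0.333 of Atp5d in HT fluoxetine females, against 0.152 to 0.210 in HT vehicle females and 0.142 to 0.226 in the other 15 fluoxetine libraries. This pair, too, was the one picked after its values were seen, and its ratio was not trend-corrected. Cox4i1 fell by 0.20 ± 0.077 (adjusted p = 0.0353), a call that was lost without any 1 of HT fluoxetine female replicates 2, 3 and 4 and HT vehicle female replicates 2 and 3 (-0.19 to -0.17, adjusted p between 0.0617 and 0.108). After trend correction, Atp5e changed by 0.32, Atp5d by -0.18 and Cox4i1 by -0.19.

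Of the scarce isoforms Cox6b2 had 25.2, 24.8, 25.9, 15.3 and 26.8 in HT fluoxetine females, against 12.3, 9.05, 15.04, 13.1 and 9.65 in HT vehicle females (0.94 ± 0.23, adjusted p = 0.00107). Atp5g2 had 275, 181, 159, 214 and 267 in HT fluoxetine females, against 136.5, 156, 120, 141 and 163 in HT vehicle females (0.58 ± 0.21, adjusted p = 0.0215), with 1 fluoxetine library inside the vehicle range. Its call was lost without HT fluoxetine female replicate 1 or 5 or HT vehicle female replicate 3 (0.50 to 0.52, adjusted p between 0.0583 and 0.0740). Cox7a1 (0.80 ± 0.35, adjusted p = 0.0677) and Atp5g1 (0.18 ± 0.079, adjusted p = 0.0674) did not pass. After trend correction, Cox6b2 changed by 0.82 and Atp5g2 was not called (0.55, adjusted p = 0.0745).

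In HT males fluoxetine called 0 members in limma and edgeR, with 0.162% of all genes called. DESeq2 called Cox5a, an outer subunit of complex IV on the matrix side. At an unadjusted p under 0.05 limma gave 4 of 41, against 8.63% of all genes, the median change was 0.04, and Cox5a had the smallest adjusted p (0.29 higher, 0.0822). In WT mice fluoxetine also called 0 members in limma, edgeR and DESeq2 (1.02% of all genes called, 6 of 41 at an unadjusted p under 0.05, against 11.1% of all genes, median 0.03). With only the compared groups in the fit, Cox5a was called there.

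The differences between fluoxetine effects were tested directly. The effect in HT females exceeded that in HT males for 18 members, with 0 in the other direction (15.2% of all genes called, 6.59% in this direction; median of the members 0.25). The 5 members described, chosen after their values were seen, were Atp5k, subunit e of the membrane part (0.53 ± 0.15), Atp5e (0.44 ± 0.14), Cox6c (0.42 ± 0.062), Atp5l (0.33 ± 0.075) and Uqcrb (0.28 ± 0.064). After trend correction, 0 members differed between the sexes, with a median of -0.01 (0.732% of all genes called). Atp5k was then at 0.23, Atp5e at 0.19 and Cox6c at 0.07, and the signs of Atp5l (-0.03) and Uqcrb (-0.22) were reversed. The fluoxetine effect was more positive in HT than in WT mice for 16 members and more negative for 2 (median of the members 0.13). Of all genes 20.6% were called, 8.97% as more positive and 11.7% as more negative. Atp5e differed by 0.35 ± 0.097, Atp5l by 0.31 ± 0.052, Uqcrh by 0.27 ± 0.043 and Atp5d by -0.29 ± 0.083. Without the 5 HT fluoxetine female libraries this difference could be formed in males alone, where 0 members differed between the genotypes. That contrast also lacks the other female groups, so the lower count cannot be laid to those 5 libraries alone. After trend correction none of the 18 kept its call (median of the members 0.02, 1.41% of all genes called). Only Uqcrb was called, in the other direction (-0.16). Atp5e was then at 0.25, Atp5l at 0.10, Uqcrh at 0.10 and Atp5d at -0.15.

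With the sexes and genotypes pooled, fluoxetine called 24 members as higher and 0 as lower than vehicle (20% of all genes called, 9.72% as higher). Without the HT fluoxetine females, which leaves WT mice and HT males in the contrast, it called only 3 (Uqcrfs1, Cox5a and Cox5b), with 2.08% of all genes called. After trend correction it called 6, with 8.84% of all genes called. HT against WT under fluoxetine gave 23 higher and 2 lower (33.3% of all genes called, 15.6% as higher and 17.8% as lower). After trend correction it gave 10 and 2, with 11.8% of all genes called. In males alone, without that correction, it gave 6 and 0, with 1.4% of all genes called. The 6 were Uqcrfs1, Uqcrh, Cox5a, Cox7a2, Cox7b and Atp5l.

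Lithium and fluoxetine were set against each other in HT females. The test called 0 members in limma, edgeR and DESeq2, with 0.0559% of all genes called and 1 of 41 members at an unadjusted p under 0.05, against 10.2% of all genes. Differences ran from -0.31 (Cox6b2) to 0.25 (Atp5g2), with a median of -0.04. The member at an unadjusted p under 0.05 was Cox5a, a matrix-side subunit of complex IV, at -0.21 (adjusted p = 0.228). For Uqcrh the difference was -0.04 with a 95% interval of -0.12 to 0.05, and for Cox6c it was -0.03 (-0.11 to 0.06). For Atp5e it was -0.04 (-0.23 to 0.15) and for Atp5d -0.07 (-0.23 to 0.09). This does not show that the drugs act alike.

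Without a drug no member passed the test between the genotypes. HT against WT under vehicle called 0 members in limma, edgeR and DESeq2 (0.106% of all genes called), and 0 of 41 at an unadjusted p under 0.05, against 7.9% of all genes. The differences ran from -0.32 (Cox6b2) to 0.15 (Uqcr10), with a median of 0.02.

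**Figure D4:**
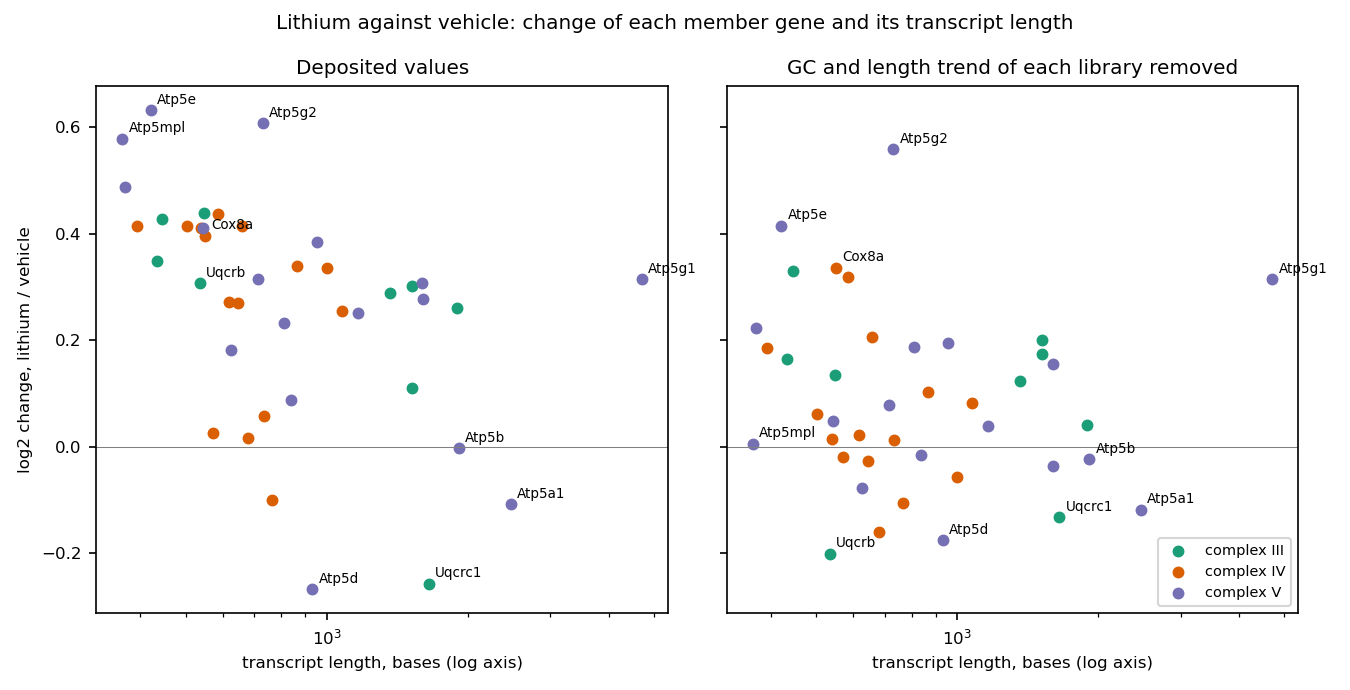
Log2 change of each member under lithium against vehicle (y axis) by the length of its annotated transcript (x axis, log scale), for the deposited values (left) and with each library's trend on GC content and length taken out (right). Points are genes, coloured by complex. On the left shorter transcripts tended to have the more positive changes (Spearman correlation -0.61). Atp5g2, of 731 bases, was at 0.61, above the shortest transcript, Atp5mpl (366 bases, 0.58). On the right the median was 0.06, while Atp5g2 (0.56) and Atp5e (0.41) stayed high and Uqcrb lay at -0.20.

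Transcript length moved with these changes. Over the 41 members the lithium change had a Spearman correlation of -0.61 with transcript length and -0.21 with GC content, and the change in HT fluoxetine females -0.64 and -0.23; the points share libraries, and these values are descriptions. The 33 members that rose under lithium had a median length of 659 bases and a median GC content of 50.1%. The 4 that fell had medians of 1292 bases and 57.8%. After the trend on GC content and length was removed, of the 33 that had risen, 20 were still called as rising, 11 were not called and 2 were called as falling. All 4 that had fallen were still called as falling.

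With the trend removed, 7 genes had a lithium change of 0.22 or more: Atp5g2, Atp5e, Cox8a, Uqcr11, Cox6b2, Atp5g1 and Atp5k (0.22). The place of Atp5g1 among them is unsure, because the trend used its annotated length of 4715 bases. The opposite signs of Atp5e and Atp5d remained. Processed pseudogenes of such short genes can share reads with them in transcript-level counting, so the level of any single small subunit is less sure than that of the long ones.

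Genes that work with the 3 complexes were counted in the same way for lithium against vehicle, where 32.7% of all genes rose and 30.4% fell. Counts for these lists and those below were not trend-corrected. Of 47 nuclear complex I genes 36 rose and 7 fell, led by Ndufc2 (0.42), and of the 4 complex II genes 3 rose and 1 fell, led by Sdhd (0.22). Cycs, which carries electrons between complexes III and IV, rose by 0.38. Of 13 subunits encoded by the mitochondrial genome 12 rose and 0 fell, led by mt-Atp6 (1.61), which belongs to complex V; genes of the mitochondrial chromosome held 6.76 to 10.3% of counts under lithium, against 5.23 to 7.39% under vehicle. Assembly factors rose in 4 of 6 cases for complex III (Uqcc2, 0.49), in 13 of 20 for complex IV (Coa6, 0.34) and in 4 of 5 for complex V (Tmem242, 0.35), where 1, 1 and 0 fell. Carriers and pores for ATP and phosphate gave 4 that rose and 1 that fell of 6 (Vdac3, 0.21).

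Other parts of energy metabolism were counted beside the 32.7% of all genes that rose and the 30.4% that fell under lithium; no difference in direction between lists was tested. Of 13 rows for the tricarboxylic acid cycle 5 rose and 6 fell (Dld, 0.29), and of 17 rows for glycolysis 3 rose and 11 fell, led by Hk1, brain's main hexokinase (-0.40). Of 11 regulators of mitochondrial biogenesis 3 rose and 5 fell, led by Nfe2l1 (-0.20). Among 82 cytosolic ribosomal protein genes, which are also short, 60 rose and 8 fell (Rpl22l1, 0.71).

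Markers of cell types stood beside these changes. Of 5 endothelial markers 4 fell under lithium (Cdh5, -0.59), and their summed count was 4258 to 6663 in lithium libraries, against 4916 to 7352 in vehicle libraries. Of 6 pericyte and smooth muscle markers 4 fell (Pdgfrb, -0.52; sums 4247 to 8148 under lithium and 4195 to 8446 under vehicle). Of 5 microglia markers 2 fell and 1 rose (Cx3cr1, -0.42; 5381 to 7949 under lithium and 6068 to 8937 under vehicle). Of 4 excitatory neuron markers 3 fell and 1 rose (Camk2a, -0.31; 116759 to 155233 under lithium and 129929 to 191715 under vehicle), and of 4 general neuron markers 3 fell and 1 rose (Rbfox3, -0.22; 107815 to 150560 under lithium and 117215 to 148157 under vehicle). Of 6 parvalbumin interneuron markers 2 rose and 2 fell (Pvalb, 0.78), of 5 astrocyte markers 2 fell (Aldoc, -0.22) and of 5 oligodendrocyte markers 1 fell (Mag, -0.57). Both muscle markers in the table fell (Actn3, -0.46) and 1 of 3 erythroid markers rose (Hbb-bs, 0.43). No marker was at 0 in any library; Ckm and Tnnt3 had no row, and the muscle markers summed to 31.3 to 56.5 under lithium, against 45.0 to 76.4 under vehicle. In HT fluoxetine females, against HT vehicle females, 3 of 5 endothelial markers fell (Cdh5, -0.51; sums 4735 to 5166 in HT fluoxetine females and 4916 to 6510 in HT vehicle females), as did 3 of 6 pericyte and smooth muscle markers (Pdgfrb, -0.61; sums 4810 to 5809 in HT fluoxetine females and 5377 to 7364 in HT vehicle females) and 2 of 5 microglia markers (Csf1r, -0.48). Of the excitatory neuron markers 2 fell and 1 rose (Neurod6, 0.57), and of the general neuron markers 2 fell and 1 rose (Rbfox3, -0.27; sums 132588 to 141395 in HT fluoxetine females and 117215 to 140549 in HT vehicle females). Of the parvalbumin interneuron markers 1 rose and 1 fell (Pvalb, 0.56), 1 astrocyte marker (Aldoc, -0.38) and 1 muscle marker (Actn3, -0.47) fell, and 0 oligodendrocyte and 0 erythroid markers were called. Of all genes 32.7% rose and 30.4% fell under lithium. In HT fluoxetine females, against HT vehicle females, 18.9% of all genes rose and 19.5% fell. The part of all these markers in the members' changes was not tested.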

How the data were processed

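RNA of prefrontal cortex was sequenced after a stranded messenger RNA library kit, per the labels' protocols, and 1 table of genes by 59 libraries was used. Salmon (0.11.2), DESeq2 (1.19.11), R (3.6.0) and the build GRCm38 stand in the submitters' processing notes. The deposited values are a normalised signal: in the authors' table all values up to 1000 reads fell on multiples of a step that is fixed within a library (100% within 0.01 read), so they are rounded estimated counts divided by a size factor (0.827 to 1.13). Deposited sums were 28.5 to 31.1 M. GENCODE M21 (GRCm38) gave symbols, transcript length and GC content for 18077 of the 18088 rows.

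Values plus 1 were tested on the log2 scale with limma-trend (version 3.58.1 in R 4.3.3), with 12 group means and 47 residual degrees of freedom, two-sided. Genes with at least 10 in at least 4 libraries were tested (17891), and p-values were adjusted over all of them within each of 14 comparisons, with a threshold of 0.05. A fold change on this scale understates the change of low genes. Ranges of 3 values are the lowest, the median and the highest library. Counts of libraries refer to the vehicle mean of the same genotype and sex.

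Alternatives were constants of 0.5 and 5, no filter, no intensity trend, median centring, only the groups compared, a block by replicate number, leaving out the 5 HT fluoxetine female libraries or each library in turn, count models of the recovered reads (edgeR 4.0.16; DESeq2 1.42.0), and a natural-spline trend on GC content and length (5 degrees of freedom each) subtracted from every library. The fit was tested on simulated data. Described in full were the 3 called members of smallest p in each complex and main comparison, isoform sets, members called against their complex and those of highest and lowest level. The members and the lists were chosen with earlier results of these data known. The mean residual correlation of libraries with the same replicate number was 0.0104 (319 pairs, -0.316 to 0.360), against -0.00257 for other numbers. These numbers come from the sample titles, and the library names of HT vehicle male replicates 3 and 4 carry other numbers. A pairing or batch that the title numbers do not carry was not tested. No 2 columns were identical. Promoter windows came from RefSeq. Depth bears on counting error alone. Figures were drawn in matplotlib 3.10.9 (Python 3.11.15).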

Additional observations from a re-analysis of the deposited data

Results flagged for a closer look

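Single libraries stood apart within their group in 8 of 144 groups of values tested, a gap that chance gives in about 1 group in 20. Uqcrh was 2928 in WT fluoxetine female replicate 4, against a group median of 2680.1. Cox4i1 was 12489 in HT fluoxetine male replicate 4, against a median of 11148. Atp5d was 5814 in WT fluoxetine male replicate 4, against a median of 5130.2. Atp5mpl was 1791 in WT lithium male replicate 2, against a median of 1558. Cox6a2 was 117 in HT vehicle male replicate 4, against a median of 155. The mean log2 deviation of complex III was -0.092 in WT fluoxetine female replicate 5, against a median of -0.01. That of complex V was -0.23 in HT vehicle female replicate 4, against a median of -0.13, and 0.094 in WT lithium female replicate 5, against a median of 0.18.

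The fluoxetine effect differed between groups by the test of the difference itself. Between HT females and HT males 18 members differed, among them Atp5k (0.53), Atp5e (0.44), Cox6c (0.42), Atp5l (0.33) and Uqcrb (0.28), each more positive in HT females. Between HT and WT mice 18 members also differed, among them Atp5e (0.35), Atp5l (0.31) and Uqcrh (0.27), more positive in HT mice, and Atp5d (-0.29), more negative in HT mice. With the GC and length trend removed, 0 members differed between HT females and HT males, and between HT and WT mice 1 did (Uqcrb, -0.16), which is of the opposite sign to its value on the deposited scale. Atp5e lost its call between the sexes without HT vehicle male replicate 1 or 3 (0.35 to 0.39, adjusted p = 0.0730 to 0.0796).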

How the results depend on the processing

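Counts of called members were within 1.5 times those reported under constants of 0.5 and 5, no filter and no intensity trend. They were so too under median centring, edgeR and the replicate block. For lithium against vehicle edgeR called 35 of 41 and each of the others 37. For fluoxetine in HT females each of these settings called 32. Removing the GC and length trend gave 20 called members in place of 34 for lithium in HT mice, 14 in place of 32 for fluoxetine in HT females, 6 in place of 24 for fluoxetine against vehicle and 12 in place of 25 for HT against WT under fluoxetine. It gave 0 in place of 18 for the difference between HT females and males, 1 in place of 18 for the genotype difference in the fluoxetine effect (Uqcrb) and 1 in place of 0 for HT against WT under lithium (Cox7a2). The trend removal also reversed the sign of Uqcrb (-0.20), Cox5a (-0.026), Cox7b (-0.057), Atp5h (-0.077), Atp5o (-0.016) and Atp5s (-0.037) under lithium. In HT fluoxetine females it reversed Uqcrb (-0.21), Cox6b1 (-0.028), Cox7b (-0.061), Cox7c (-0.020), Atp5h (-0.12), Atp5mpl (-0.071) and Atp5s (-0.037), and in the difference between the sexes Uqcrb (-0.22) and Atp5l (-0.029); the cause was not tested. Without the 5 HT fluoxetine female libraries 3 members were called for fluoxetine against vehicle. There were 6 for HT against WT under fluoxetine and 0 for the genotype difference, both in males alone. Comparisons that need those libraries could not be made. DESeq2 called 1 for fluoxetine in HT males (Cox5a) and 1 for HT against WT under lithium (Atp5mpl), and the fit of only the groups compared called 1 for fluoxetine in WT mice (Cox5a). Leaving out each library gave 34 to 37 for lithium against vehicle, 32 to 34 in HT and 33 to 35 in WT mice, 28 to 33 for fluoxetine in HT females, 0 to 1 in HT males, 22 to 27 for fluoxetine against vehicle, 24 to 27 for HT against WT under fluoxetine, 15 to 19 for the genotype difference and 13 to 20 for the sex difference. The 1 call in HT males (Cox5a) came without HT vehicle female replicate 4 or WT lithium male replicate 2. The other 5 comparisons stayed at 0 called members, from 0 to 0.

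The annotation gives 1 transcript per gene, litters are unknown, and whole tissue mixes cell types. The deposited values carry no transcript-level counts, and no protein or enzyme activity was measured.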

Other observations

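After the group means were removed, most members still moved together from library to library. The median correlation of a member's residuals with those of the other 40 members was 0.66 for Uqcr11 and Uqcrq and 0.65 for Uqcr10 and Cox7b, all small subunits. Cox4i1, the large subunit IV, stood beside them at 0.64, so high values were not confined to small subunits. It was 0.00 for Cox4i2, 0.02 for Atp5s, 0.09 for Cox6b2 and 0.13 for Atp5g2, which are among the members of lowest level per kilobase. The abundant Atp5a1 (0.32), Cox8a (0.28) and Uqcrc2 (0.28) were also low. Cox6a2 (0.51) and Cox7a1 (0.30), likewise among the lowest in level, stood higher than Atp5g2. These values describe the 59 libraries after the group means were removed, and carry no test. What moves the members together was not tested.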
